A study of Homo sapiens with 12 samples.

Results

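The addition of vemurafenib to tretinoin was examined in A375 cells, an established human melanoma line that carries mutant BRAF, by comparing the 3 vemurafenib + tretinoin combination samples with the 3 tretinoin samples. These 6 of the 12 samples of the series were chosen by their labels, and the comparison was made across all 16740 genes that passed a filter on low counts, of 58347 genes in the files. Cells had been plated the day before and were exposed to drug for 8 h, and the labels give 5 µM as the dose in all 4 groups, vehicle included. Whether that dose applied to each drug of the combination was not stated in the sources used here. The other 6 samples were 3 DMSO vehicle samples and 3 samples given vemurafenib alone, and they were used to ask whether vemurafenib acted differently once tretinoin was present. All samples came from 1 cell line and were described only as triplicates, so p-values measure the spread between these samples, which may be partly technical.

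Mutant BRAF signals through the kinases MEK and ERK without needing a growth factor. Active ERK phosphorylates transcription factors of the ETS and AP-1 families, which switch on early genes such as EGR1 and FOSL1, cyclin D1 and secreted growth factors. It also switches on its own inhibitors, the DUSP phosphatases and the Sprouty and SPRED proteins, so the RNA of these genes follows the activity of the pathway. Vemurafenib blocks the mutant kinase. Tretinoin, all-trans retinoic acid, binds the retinoic acid receptors, which pair with retinoid X receptors on DNA and turn on genes such as RARB, DHRS3 and the HOX clusters.

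Promoter sequences of 6 chosen genes are shown first, each as the 200 bases that end just before the RefSeq transcription start (GRCh38.p14), written 5′ to 3′ along the gene's own strand. EGR1 is shown because it is a standard early ERK gene, and capitals mark its CArG boxes, the letters bound by serum response factor. CXCL8, IL11, PLAUR and SPRED3 are shown because they fell at least 4-fold and hold the AP-1 letters TGAGTCA or, read on the other strand, TGACTCA, which are in capitals. Most genes that fell at least 4-fold lack these letters, which were in 14 of their 119 promoters. RARB is shown because it rose the most of the retinoid genes, and capitals mark a direct repeat of the DR5 kind, the letters bound by retinoic acid receptors.
EGR1, chr5:138465279-138465478, plus strand: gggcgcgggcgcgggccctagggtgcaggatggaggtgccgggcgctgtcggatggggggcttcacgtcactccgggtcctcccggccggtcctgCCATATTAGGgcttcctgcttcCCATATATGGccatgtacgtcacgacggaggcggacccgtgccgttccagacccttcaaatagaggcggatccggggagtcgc
CXCL8, chr4:73740369-73740568, plus strand: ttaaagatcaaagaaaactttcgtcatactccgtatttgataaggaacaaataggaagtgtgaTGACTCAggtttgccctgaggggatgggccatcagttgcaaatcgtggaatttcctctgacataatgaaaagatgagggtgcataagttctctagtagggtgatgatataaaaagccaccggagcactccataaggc
IL11, chr19:55370464-55370663, minus strand: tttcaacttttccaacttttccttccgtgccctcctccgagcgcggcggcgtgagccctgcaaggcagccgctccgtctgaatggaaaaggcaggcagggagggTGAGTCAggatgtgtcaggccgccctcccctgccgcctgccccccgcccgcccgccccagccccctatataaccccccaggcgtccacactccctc
PLAUR, chr19:43670170-43670369, minus strand: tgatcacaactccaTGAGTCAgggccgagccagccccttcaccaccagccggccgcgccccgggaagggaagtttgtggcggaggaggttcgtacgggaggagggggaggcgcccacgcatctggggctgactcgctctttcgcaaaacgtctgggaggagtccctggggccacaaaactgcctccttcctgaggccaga
SPRED3, chr19:38389591-38389790, plus strand: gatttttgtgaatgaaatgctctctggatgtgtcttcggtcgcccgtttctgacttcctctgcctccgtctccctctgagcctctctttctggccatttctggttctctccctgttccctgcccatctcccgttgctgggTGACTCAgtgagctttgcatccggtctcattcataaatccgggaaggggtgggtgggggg
RARB, chr3:25428063-25428262, plus strand: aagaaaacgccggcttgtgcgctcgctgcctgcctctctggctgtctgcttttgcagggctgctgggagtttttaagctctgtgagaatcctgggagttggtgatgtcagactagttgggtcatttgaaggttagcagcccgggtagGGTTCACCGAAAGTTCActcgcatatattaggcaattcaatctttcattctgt
The EGR1 promoter held 2 CArG boxes, the nearer of them 83 to 74 bases before the start. The AP-1 letters began 137 bases before the start in CXCL8, 96 in IL11, 186 in PLAUR and 60 in SPRED3, and the repeat in RARB lay 53 to 37 bases before it. A match of letters is a description and does not show that a factor was bound in these cells.

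Total counts were 13510235, 17992581 and 19015571 for the tretinoin samples and 17408109, 20651893 and 21534377 for the combination samples. Tretinoin replicate 1 stood apart. It was the shallowest library, and its counts differed from those of the other two tretinoin samples by a chi-square of 19.1 and 21.8 per degree of freedom, against 2.56 between the latter and 3.94 to 8.38 among the combination samples. Mitochondrial genes took 1.49%, 0.957% and 1.03% of the counts in the tretinoin samples and 1.21%, 1.86% and 1.76% in the combination samples, so the ranges overlapped. They took 0.689%, 0.592% and 0.658% of the counts in the DMSO samples and 1.10%, 1.09% and 1.11% with vemurafenib, so every DMSO sample lay below the other 9. Without tretinoin replicate 1 the test called 8242 genes, of which 7374 were called in the same direction with it, and 843 calls were lost. Of the 153 genes followed one by one that passed the test, 5 lost their call without that sample (CAD, NPC1, PSMB9, HLA-C and VAV1). With any 1 of the 6 libraries left out in turn, the small or low-count changes of FOSL2, JUNB, MCM2, LIG1, CAD, LAMP1, NPC1, PSMB9, HLA-C and VAV1 lost their call at least once. Of the melanocyte lineage list, 8 of 18 genes were below the filter, among them MLANA with at most 19 counts in any sample and TYR with at most 1, while MITF was tested. SOX10 was listed at 0 in every sample, but its span lies within that of POLR2F and fragments that could be assigned to more than 1 gene were dropped, and the part of this in the 0 was not tested.

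Adding vemurafenib to tretinoin changed about as many genes upwards as downwards. In edgeR's quasi-likelihood test at a Benjamini-Hochberg adjusted p under 0.05, 4026 genes were higher with the combination than with tretinoin, 24.1% of those tested, and 4191 were lower, 25.0%. At least 2-fold changes were called for 1297 genes that rose, 7.75%, and 780 that fell, 4.66%. The order was the reverse among the 11001 genes with a mean of at least 100 normalized counts. Of these, 283 rose and 441 fell at least 2-fold. The groups did not overlap in 9228 genes, 55.1%. The median log2 fold change of all genes was 0.02, and it moved to 0.11 when libraries were scaled by total counts alone, with 60.7% of the calls then upwards against 49.0%. The counts and medians of the gene lists below are to be read against these shares.

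Among genes with a mean of at least 100 normalized counts, the largest falls were in the ERK feedback genes SPRY4 and DUSP6, and the largest rise was in BMF, a gene of the cell death machinery. SPRY4, a Sprouty inhibitor of growth factor signalling (chr5:142310427-142326455), had normalized counts of 2025.5, 1589 and 1450.0 in tretinoin and 16.9, 21.8 and 24.5 in the combination. All 3 combination samples lay far below every tretinoin sample, a 78.6-fold lower level (log2 -6.30, SE 0.15, adjusted p = 3.6e-15). BMF, a BH3-only protein that promotes apoptosis (chr15:40087890-40108892), had 66.2, 56.7 and 52.5 normalized counts in tretinoin and 2139.7, 2230.5 and 2158 in the combination. The rise was 37.5-fold (log2 5.23, SE 0.10, adjusted p = 3.6e-16), far beyond the spread within either group. Normalized counts here are counts divided by the effective library size and scaled to the mean library, so they compare samples within a gene and not levels between genes.

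**Figure D1:**
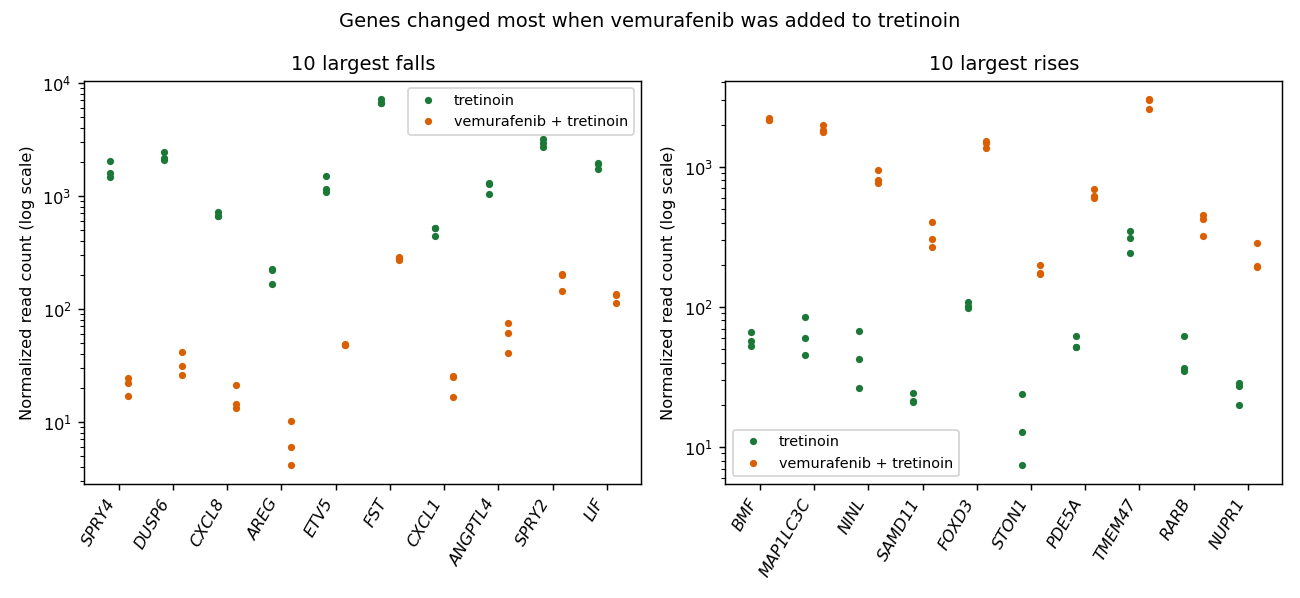
Normalized read counts on a log scale of the 10 genes with the largest falls (left) and the 10 with the largest rises (right) among genes named by rule between tretinoin (green) and vemurafenib + tretinoin (orange). Each point is 1 sample, and the 3 points of one group lie apart from the 3 of the other for every gene shown.

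Among the phosphatases that switch off MAP kinases, 8 of 11 tested members fell, 1 rose and 2 did not pass the test, with a median log2 fold change of -1.29. DUSP6, the ERK-specific cytoplasmic phosphatase, fell the most, with 2419, 2152 and 2080.5 normalized counts in tretinoin and 30.8, 26.0 and 41.7 in the combination (log2 -6.06, SE 0.13, adjusted p = 7.4e-16). DUSP4 and DUSP5, both nuclear phosphatases, fell, with log2 fold changes of -2.55 and -2.78. The combination samples held 82.5, 172 and 82.6 normalized counts of DUSP5, so replicate 2 lay above the other two, though still far under the 799, 738 and 804 of tretinoin. DUSP2 fell as well (log2 -2.73, adjusted p = 1.5e-09). DUSP16, which acts mainly on the stress kinase JNK, went the other way, from 181.5, 195 and 160.3 to 270.5, 269 and 274 (log2 0.60, adjusted p = 6.4e-05).

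All 7 members of the Sprouty and SPRED list fell at least 2-fold, where 4.66% of all genes did so. After SPRY4, the order by log2 fold change was SPRY2 at -4.00, SPRY1 at -2.90, ERRFI1 at -2.60, SPRED3 at -2.59, SPRED2 at -2.07 and SPRED1 at -1.36. ERRFI1 encodes an inhibitor of the EGF receptor, and SPRED proteins hold back RAF through neurofibromin. SPRY2 stood at 3139.7, 2705 and 2929 normalized counts in tretinoin and 143, 203 and 199 in the combination, and SPRED3, whose promoter with AP-1 letters is printed above, at 171, 130.2 and 146.5 and 24.9, 24.3 and 24.5. For SPRED1 the groups were closer, 2059, 1756 and 1843 against 667, 754 and 782, and still apart.

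Of 27 ERK-responsive transcription factor genes, 22 fell and 5 rose, and the median log2 fold change was -1.08. ETV5, an ETS factor of the PEA3 group, fell from 1504, 1138 and 1081 to 47.7, 47.9 and 48.3 normalized counts (log2 -4.69, SE 0.13, adjusted p = 1.6e-14), and its relative ETV4 fell too (log2 -2.58). Tretinoin replicate 1 was the highest of the tretinoin samples for ETV5, and the combination samples were nearly equal. FOSL1, an AP-1 subunit, fell from 9494.5, 8666 and 8247 to 972, 1030.1 and 1070.1 (log2 -3.10, adjusted p = 2e-14). EGR1 fell from 303, 226 and 213 to 19.9, 24.3 and 27.0 (log2 -3.35, adjusted p = 4e-11), and so did MYC, the growth-promoting factor (log2 -3.17). The genes that rose were all small in change and included other AP-1 parts: FOSL2 (0.31), JUN (0.36), JUND (0.42), the stress factor ATF3 (0.54) and the ETS factor ETS2 (0.74), each as a log2 fold change. JUN held 1125, 1512 and 1459 normalized counts in tretinoin and 1759, 1786 and 1736 in the combination, apart but by little. AP-1 subunits thus did not move together, with FOSL1 down and JUN and JUND up.

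Among 17 tested genes of other ERK responses, 15 fell, none rose and 2 did not pass (UPP1 and VEGFA), with a median of -2.02. ESM1, a secreted proteoglycan, was at 168, 167 and 189 normalized counts in tretinoin and at 1.0, 4.2 and 0.0 in the combination, which is at or near 0. AREG, a ligand of the EGF receptor, fell from 164, 225 and 219 to 6.0, 10.1 and 4.1 (log2 -4.89, SE 0.27, adjusted p = 1e-10). LIF, a cytokine of the interleukin 6 family, fell from 1947, 1713 and 1884 to 133, 133.5 and 113 (log2 -3.87, adjusted p = 5.6e-15). PHLDA1 and the ephrin receptors EPHA2 and EPHA4 fell, with log2 fold changes of -2.10, -2.27 and -1.47. PLAUR, the urokinase receptor, fell from 1411, 1419.9 and 1581 to 249.6, 264 and 251 normalized counts (log2 -2.53, adjusted p = 2.9e-13).

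Cytokine and chemokine genes fell almost as far. Of 12 tested, 10 fell, 1 rose and 1 did not pass, and the median log2 fold change was -1.76. CXCL8, interleukin 8, a chemokine that draws neutrophils, fell from 662, 715 and 658 to 20.9, 14.3 and 13.1 normalized counts (log2 -5.41, SE 0.14, adjusted p = 5.4e-15). CXCL1 fell from 438.5, 511 and 517 to 24.9, 25.2 and 16.4 (log2 -4.47, adjusted p = 6.8e-13). Its close relatives CXCL2 and CXCL3 fell, with log2 fold changes of -1.76 and -2.51, with reads that could have been shared between these similar genes. IL11 fell from 596, 634 and 573 to 83.5, 79.8 and 61.4 normalized counts (log2 -3.01, adjusted p = 1.6e-12). CSF2 stood at 13.2, 34.7 and 40.6 normalized counts in tretinoin, lowest in replicate 1, and at 1.0, 1.7 and 0.0 in the combination. TGFB1, which restrains growth in many cell types, was the riser, from 3545, 3383 and 3188 to 5128, 5536 and 5795 (log2 0.70, adjusted p = 4.3e-07).

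Genes of the pathway itself were called about as often as all genes, of which 24.1% rose and 25.0% fell, but only 1 of 20 changed at least 2-fold. Of 20 genes from RAS to the ribosomal S6 kinases, 5 rose, 6 fell and 9 did not pass, and the median log2 fold change of -0.08 changed sign under scaling by total counts. BRAF held 404, 361 and 325 normalized counts in tretinoin and 371, 368 and 359 in the combination, and the groups overlapped (log2 0.01, SE 0.09, adjusted p = 0.9). MAP2K1, which encodes MEK1, fell from 1231, 1300.2 and 1229 to 872, 988 and 918 (log2 -0.44, adjusted p = 0.00013). Among the S6 kinases, targets of ERK, RPS6KA3 fell with a log2 fold change of -0.99 while RPS6KA2 rose by 1.03.

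Receptor tyrosine kinases moved in both directions. Of 16 tested receptors, ligands and adaptors, 9 fell and 4 rose, with a median of -0.49. EGFR fell from 560.4, 442 and 415 to 197, 191 and 182 normalized counts (log2 -1.31, adjusted p = 4.7e-08). The risers were PDGFRB, DDR2, ERBB3 and ERBB2, with log2 fold changes of 1.13, 1.01, 0.85 and 0.71. ERBB3, the neuregulin receptor, went from 4827, 4524 and 4079.9 to 7688, 8459.6 and 8103 normalized counts (adjusted p = 1.7e-07), and PDGFRB, a PDGF receptor, from 225, 225 and 237 to 452, 517 and 531 (adjusted p = 1.9e-08).

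Most genes of G1 and of DNA replication fell, and most genes of mitosis did not pass the test. Of 24 genes for G1 cyclins, CDK inhibitors and E2F factors, 17 fell and 5 rose, with a median of -0.60. CCND1, cyclin D1, fell from 11627, 10432 and 10171 to 833, 745.5 and 739.6 normalized counts (log2 -3.80, SE 0.11, adjusted p = 1.2e-14), and E2F1, the factor that drives S-phase genes, from 1929, 2138 and 2235 to 891, 917 and 897 (log2 -1.22, adjusted p = 8.8e-11). Of the 5 risers, 4 were CDK inhibitors, CDKN1C (1.85), CDKN2C (1.38), CDKN1B (0.75) and CDKN1A (0.43), and the other was cyclin D2, CCND2 (0.87), all as log2 fold changes. CDKN1B, which encodes p27, held 711, 776 and 779.9 normalized counts in tretinoin and 1310.5, 1333 and 1173 in the combination (adjusted p = 8.9e-07).

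Of 36 genes for origin licensing and DNA replication, 29 fell, 1 rose and 6 did not pass, a share far above the 25.0% of all genes, but only 1 fell 2-fold and the median was -0.43. MCM10, a replication initiation factor, fell from 1478, 1698 and 1549 to 741, 689 and 678 normalized counts (log2 -1.17, adjusted p = 6.6e-10), and CDC6, a licensing factor (log2 -0.95), PCNA, the sliding clamp (-0.52), and MCM2, a subunit of the helicase (-0.23), fell by less. LIG1, a DNA ligase, was the riser (0.22, adjusted p = 0.017). Of 26 genes of nucleotide synthesis, 18 fell and 3 rose, with a median of -0.38. The purine enzymes ADSL and PPAT fell, with log2 fold changes of -1.03 and -0.95, TYMS, which makes thymidylate, fell by 0.39, and SHMT2, a mitochondrial enzyme of one-carbon metabolism, rose by 0.41. CAD, the first enzyme of pyrimidine synthesis, was called at a log2 fold change of -0.28, but its groups overlapped and the call was lost without tretinoin replicate 1. Of 23 genes of mitosis and the spindle, 3 fell, 7 rose and 13 did not pass, and the median of -0.04 changed sign under scaling by total counts. MKI67, a proliferation marker, was at 5413, 5449.5 and 4906 normalized counts in tretinoin and 5089, 4809.5 and 4770.3 in the combination, with overlap (log2 -0.10, adjusted p = 0.43). CCNB1 and PLK1 did not pass the test either. CDC20, an activator of the anaphase complex, fell with a log2 fold change of -0.43, and KIF20A, a kinesin of cytokinesis, rose by 0.46.

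Genes of ribosome biogenesis moved almost as one. Of 35 genes for rRNA processing and RNA polymerases I and III, 31 fell, none rose and 4 did not pass, with a median of -0.61 and a lowest value of -1.05. POLR1B, a core subunit of RNA polymerase I, fell from 2175, 1975 and 1914 to 1040.0, 1135 and 1163 normalized counts (log2 -0.86, SE 0.07, adjusted p = 2.1e-08). NOP56, of the box C/D particles that modify rRNA, fell from 5151, 6779 and 7355 to 3920.5, 3814 and 3488 (log2 -0.78, adjusted p = 6.5e-06), and NOLC1 fell too (log2 -0.74). Tretinoin replicate 1 was the lowest tretinoin sample for NOP56 and NOLC1 and the highest for POLR1B. POLR3G, a subunit of RNA polymerase III, fell the most (-1.05).

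In glycolysis and glucose uptake, 14 of 23 genes fell and 1 rose, with a median of -0.29. The glucose transporter SLC2A3 and hexokinase 2, HK2, fell, with log2 fold changes of -1.70 and -1.28, and LDHA, lactate dehydrogenase, fell by 0.53. HK2 went from 1788, 1800.1 and 1723 normalized counts to 708, 767 and 704 (adjusted p = 1.8e-10), and ALDOC, an aldolase, was the riser (0.48, adjusted p = 0.0039). Cholesterol genes rose and fell about as often as all genes tested, of which 24.1% rose and 25.0% fell. Of 23 cholesterol genes, 7 rose, 5 fell and 11 did not pass, with a median of 0.10. HMGCS1, which makes the precursor of the pathway, fell with a log2 fold change of -0.44 (adjusted p = 0.002), and SREBF1, a regulator of lipid genes, rose by 0.68 (adjusted p = 4.6e-07).

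Lysosome and autophagy genes rose more often than they fell, 16 against 4 of 30, with a median of 0.27, against 24.1% of all genes rising. ULK1, the kinase that starts autophagy, rose from 620.0, 549 and 567 to 1387, 1263 and 1257 normalized counts (log2 1.17, SE 0.08, adjusted p = 8.4e-10). SQSTM1, the autophagy receptor p62, rose by 0.66 and the protease gene CTSD by 0.46, and LAMP1, a membrane protein of the lysosome, rose by 0.17 (adjusted p = 0.036). NPC1, which exports cholesterol, fell by 0.40, a call that was lost without tretinoin replicate 1.

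The BCL2 family spread widely in both directions. Of 15 genes, 4 rose and 7 fell, with a median of 0.14. The 4 that rose all encode BH3-only proteins, which promote apoptosis: BMF as above, BBC3 (1.23), HRK (1.23) and BCL2L11 (0.98), as log2 fold changes. BCL2L11, which encodes BIM, rose from 301, 257 and 248 to 513, 532 and 535 normalized counts (SE 0.09, adjusted p = 6.1e-08). Among the 7 that fell were the survival genes MCL1 (-1.18), BCL2 (-1.09) and BCL2L1 (-0.82). PMAIP1, which encodes NOXA, a BH3-only protein, fell the most, from 566, 667 and 599.8 to 271, 231 and 258.5 (log2 -1.27, adjusted p = 2.9e-09), so BH3-only genes did not move as one.

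Retinoid receptors and retinoid-responsive genes split in the presence of vemurafenib. Of 24 tested, 8 rose, 9 fell and 7 did not pass, with a median of 0.20, and the other 8 listed were below the filter. RARB, the beta retinoic acid receptor, had 62.3, 36.8 and 34.6 normalized counts in tretinoin, highest in replicate 1, and 319, 456 and 421 in the combination (log2 3.20, SE 0.19, adjusted p = 2.8e-10). Against DMSO (24.5, 23.2 and 25.7), tretinoin alone did not pass the test at 8 h (log2 0.82, adjusted p = 0.1), and vemurafenib alone gave 196, 173 and 144 (log2 2.80, adjusted p = 1.5e-08). DHRS3, which turns retinal back into retinol, rose from 2581, 2869 and 3000.0 to 7351, 7103 and 7359.6 (log2 1.37, adjusted p = 3.8e-10), on top of a tretinoin effect of 2.91 against DMSO. Vemurafenib alone raised DHRS3 by 1.74 against DMSO (adjusted p = 7.1e-11). The difference between the vemurafenib effects on DHRS3 with and without tretinoin did not pass edgeR's interaction test (-0.37, SE 0.12, adjusted p = 0.18). RARG, CRABP2, HOXA4 and HOXA5 rose by log2 values of 0.71, 0.80, 0.98 and 1.25. PRDM1, a repressor of transcription, and TGM2, tissue transglutaminase, fell, with log2 fold changes of -1.98 and -1.73, HOXB2 fell by 1.56, and CYP26A1, which breaks down retinoic acid, was near the filter and did not pass (0.69, adjusted p = 0.23). More widely, 583 genes were higher with tretinoin than DMSO, 3.48% of those tested, and 368 lower, 2.20%. Of the 583, 154 rose further and 221 fell when vemurafenib was added, and of the 368, 102 rose and 135 fell. These contrasts share the tretinoin samples, so the counts are given side by side only.

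Of the melanocyte lineage list, 10 of 18 genes were tested, 3 rose and 2 fell. MITF, the master regulator of the lineage, rose from 326, 303.5 and 242.5 to 482, 483.5 and 515 normalized counts (log2 0.77, adjusted p = 8e-06), and TYRP1, a pigment enzyme, from 10.6, 6.3 and 5.9 to 20.9, 33.6 and 32.7 (log2 1.97, adjusted p = 9e-05). PMEL stayed low with overlap, 19.9, 23.1 and 24.7 against 19.9, 16.0 and 10.6. EDNRB, the endothelin receptor, fell by 0.84. Class I antigen presentation hardly moved, with 2 of 18 genes rising, 1 falling and a median of 0.05. B2M was at 7762, 8428 and 8461 normalized counts in tretinoin and 8140.3, 8397.5 and 8294 in the combination (log2 0.01, SE 0.06, adjusted p = 0.91). TAP2, a subunit of the peptide transporter, fell by 0.68, and the small rises of PSMB9 and HLA-C were lost without tretinoin replicate 1. Among markers of other cell types, 9 of 15 were tested, 4 rose (VWF, KRT14, LUM and COL1A1) and 2 fell (CDH5 and PECAM1), nearly all at low counts. Their summed normalized counts ran from 611.7 to 662.8 in tretinoin and from 814.4 to 983.3 in the combination. They ran from 445.9 to 541.9 in DMSO and 852.0 to 925.2 with vemurafenib. Whether cells of another type had a part in any result was not tested. EPCAM, CDH1, CD3E, CD68 and COL3A1 were below the filter, with at most 11 counts in any sample.

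Among the largest rises outside these lists, MAP1LC3C, a member of the LC3 family of autophagy proteins, had 45.0, 85.1 and 60.4 normalized counts in tretinoin and 1836.5, 1976 and 1771 in the combination (log2 4.85, SE 0.13, adjusted p = 7.3e-15). FOXD3, a neural crest transcription factor, rose from 102, 108 and 98.0 to 1486.5, 1518 and 1351.5 (log2 3.82, adjusted p = 9.9e-15). TXNIP, an inhibitor of thioredoxin and of glucose uptake, rose from 311, 268 and 267 to 2194, 2365 and 2503 (log2 3.07, adjusted p = 1.2e-14), opposite in direction to HK2 and SLC2A3. NINL, SAMD11, STON1, PDE5A, TMEM47, NUPR1 and CD24 rose by log2 values from 3.08 to 4.17, with every combination sample above every tretinoin sample. PDE5A, the phosphodiesterase that breaks down cyclic GMP, went from 62.3, 51.5 and 51.5 to 620.4, 691 and 602 normalized counts. Among the falls not yet described, FST, follistatin, which binds activin, dropped from 6624, 6640.4 and 7105 to 269.5, 285 and 281 (log2 -4.61, adjusted p = 5e-15), and ANGPTL4, an inhibitor of lipoprotein lipase, from 1041, 1286.5 and 1257 to 40.8, 73.9 and 60.5 (log2 -4.34, adjusted p = 1.7e-12). ANGPTL4 was higher with tretinoin than with DMSO (log2 1.87, adjusted p = 6.1e-07), and its level with both drugs was below that in DMSO, 291, 341 and 348.

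Noncoding genes rose more often than they fell. Of 752 lincRNA genes tested, 31.1% rose and 10.1% fell, and of 654 antisense genes, 28.6% rose and 9.17% fell, against 24.9% and 28.2% of 13563 protein-coding genes. Their median normalized counts were 19.3 and 17.4, against 453.4 for coding genes. Coding genes in the lowest of 4 equal bins of mean counts showed nearly the same split, 31.3% up and 10.6% down, and those in the highest bin the opposite, 14.8% up and 41.0% down. The median log2 fold change went from 0.34 in the lowest bin to -0.12 in the highest. Among named long noncoding RNAs, LINC00941 fell from 226.5, 225 and 202 to 36.8, 26.9 and 41.7 normalized counts (log2 -2.63, adjusted p = 2.4e-10), LINC01819 fell by 1.93 and CYTOR fell by 1.81 on the log2 scale. IGFL2-AS1 rose from 25.2, 26.3 and 27.7 to 204, 192 and 202 (log2 2.91, adjusted p = 4e-11), FOXD3-AS1 by 2.47 and SCAMP1-AS1 by 1.50. The strand was ignored in counting, so reads of an antisense gene and of its partner, such as FOXD3-AS1 and FOXD3, cannot be fully told apart.

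The AP-1 letters shown above were more common in promoters of the genes that fell at least 2-fold or 4-fold, but not in those of all genes that fell. They were present on either strand in 3.24% of the 300-base promoters of the 11722 tested genes that matched RefSeq, in 7.57% of 515 genes that fell at least 2-fold and in 11.8% of 119 that fell at least 4-fold. Of all 3189 genes that fell with a promoter, 3.32% held them, against 3.83% of 2979 that rose. Over all 27305 RefSeq genes the share was 4.92%. Genes that rose at least 2-fold or 4-fold held them in 5.56% of 864 and 6.15% of 179. The letters TATAAA, searched on both strands, were in 5.89% of tested promoters, 13.4% of those of genes that fell at least 4-fold and 12.8% of those of genes that rose at least 4-fold. The CArG box was in 1.07%, 1.68% and 1.12% of the same sets. The DR5 repeat was in promoters of 9 tested genes, of which 4 rose, at least 2-fold each (RARB, COL24A1, PRSS27 and TRIM31), and none fell. Apart from RARB these 4 were low, with TRIM31 at 0.0, 0.0 and 3.0 normalized counts in tretinoin and 12.9, 20.1 and 18.0 in the combination. The others with the repeat (FSCN2, C17orf53, ATXN1L, PHF8 and BATF2) did not pass, with log2 fold changes from -0.60 to 0.24. Of all 11722 genes with a promoter, 864 rose at least 2-fold. All of these shares are descriptions, and no test was run on them.

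Vemurafenib changed largely the same genes in the same direction whether or not tretinoin was present. With vemurafenib against DMSO, 4411 genes rose, 26.4%, and 4400 fell, 26.3%. The 2 comparisons share no sample. In both, 3055 genes rose and 3335 fell, which is 77.8% of the calls made with tretinoin and 72.5% of those made without it, and 19 genes were called in opposite directions. Across genes, the log2 fold changes had a Pearson correlation of 0.849 and, over the 11001 genes with a mean of at least 100 normalized counts, 0.916, where genes are not independent replicates. Among the 470 such genes that fell at least 2-fold without tretinoin, 465 also fell with it, and the median log2 fold change was -1.33 without and -1.28 with tretinoin. The 354 that rose at least 2-fold without tretinoin had medians of 1.30 without and 1.16 with it, and 338 of them rose with it. Genes chosen the other way, by their change with tretinoin, had medians of 1.31 with and 1.32 without for the 283 that rose, and -1.36 with and -1.33 without for the 441 that fell. SPRY4 had log2 fold changes of -6.30 with and -6.55 without tretinoin, DUSP6 of -6.06 and -6.07, and BMF of 5.23 and 5.09. For these genes the difference between the effects was 0.26 (SE 0.29), 0.01 (SE 0.22) and 0.14 (SE 0.17), and none passed the interaction test, with adjusted p of 0.7, 0.99 and 0.72 from edgeR.

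**Figure D2:**
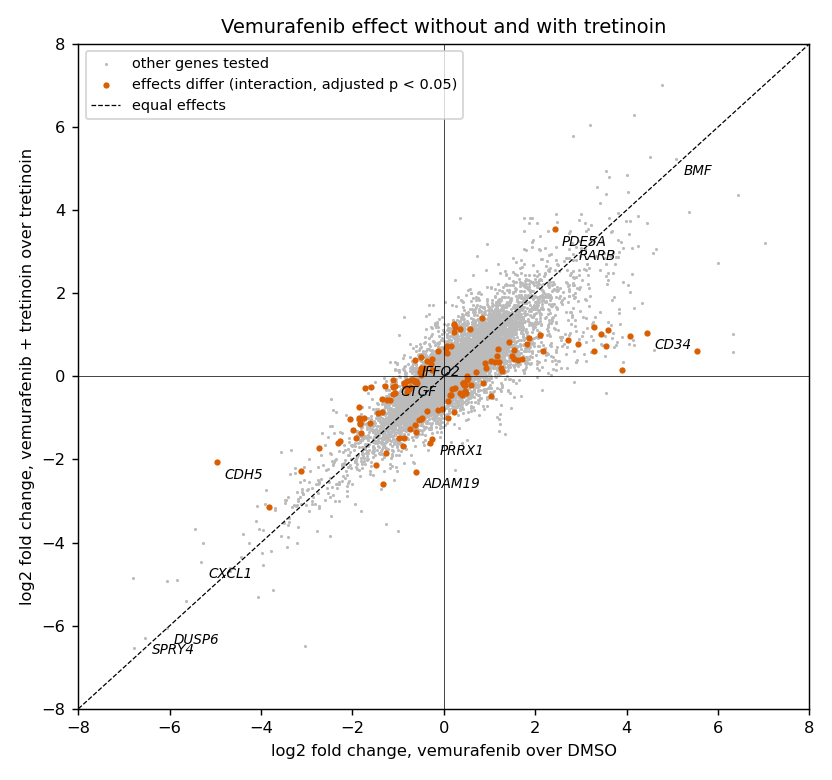
Log2 fold change of vemurafenib over DMSO (x axis) against vemurafenib + tretinoin over tretinoin (y axis) for 16740 genes, which share no sample. Orange points are the 135 genes whose effects differ in the interaction test, and the dashed line marks equal effects. Most genes lie along the line, while CD34 and CDH5 lie far from it.

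The interaction test asks whether the vemurafenib effect with tretinoin differs from that without it, and it called 64 genes with a positive difference, 0.382%, and 71 with a negative one, 0.424%. In the same test 2619 genes had an unadjusted p under 0.05, so a gene that was not called need not have equal effects. Of the 135 called genes, 74 had effects of the same sign that were smaller with tretinoin, 29 had the same sign and were larger, and 32 had opposite signs. Of the 64 positive genes, 52 fell with vemurafenib alone, against 26.3% of all genes tested. The interaction subtracts the effect of vemurafenib alone, so choosing positive values favours genes that fell there, and the counts are given side by side only. The 10 genes with the smallest p took several forms. PRRX1, a mesenchymal homeobox factor, held 1409, 1059.5 and 1221.5 normalized counts in DMSO and 1059.6, 997 and 1019.6 with vemurafenib, but 1889, 1738 and 1619 in tretinoin and 576, 619 and 662 in the combination. Its fall was thus larger with tretinoin (interaction -1.23, SE 0.13, adjusted p = 0.00045). ADAM19, a membrane protease, had the same form, from 756, 629 and 602 to 117, 118 and 166 with tretinoin and from 276, 237 and 307 to 180.2, 180.0 and 177 without (interaction -1.68, SE 0.19, adjusted p = 0.00045).

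HOXA5 and FOXC1, both developmental transcription factors, were raised more by vemurafenib when tretinoin was there. HOXA5 went from 313, 366.5 and 381 to 889, 797.5 and 853 normalized counts with tretinoin and from 205, 167 and 194 to 231, 205 and 227 without it (interaction 1.03, SE 0.14, adjusted p = 0.0024). FOXC1 went from 759, 679.5 and 713 to 1454, 1503.5 and 1537 with tretinoin and from 625, 585 and 563.5 to 702, 692 and 663 without (interaction 0.85, SE 0.10, adjusted p = 0.00047). The combination samples were the highest of all 12 for both genes. IFFO2, SLITRK6 and TIAM1 were called in opposite directions. IFFO2 rose by 0.40 with tretinoin and fell by 0.64 without it, whereas SLITRK6 fell by 0.41 with and rose by 0.48 without, and TIAM1, an activator of RAC1, fell by 0.35 with and rose by 0.47 without, all on the log2 scale.

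RIPK4 and EPHA2 were lowered less by vemurafenib when tretinoin was present, and the fall of CTGF without tretinoin did not pass the test with it. CTGF, a matrix protein and YAP target, held 1627, 1512 and 1620.3 normalized counts in tretinoin and 1344, 1605 and 1558.5 in the combination, with overlap, against 1684, 2092 and 1842 in DMSO and 784, 872 and 940.3 with vemurafenib (interaction 1.04, SE 0.13, adjusted p = 0.00085). EPHA2 had log2 fold changes of -2.27 with and -3.13 without tretinoin (interaction 0.86, adjusted p = 0.0024), and RIPK4, a kinase of keratinocyte differentiation, of -0.73 and -1.86 (interaction 1.12, adjusted p = 0.0024). Within the ERK lists the called interactions were all positive. They were EGR3 (1.01), JUN (0.74), ETS2 (0.68), JUNB (0.62), UPP1 (0.70) and EPHA2 (0.86), of which UPP1 and EPHA2 were called under all 19 alternatives, JUNB under 12, JUN under 11, ETS2 under 8 and EGR3 under 6. JUN rose with tretinoin (0.36) and fell without it (-0.37). None of the 11 phosphatase and 7 Sprouty and SPRED genes was among them. CDH5, VE-cadherin of endothelial cells, had the largest positive value of the genes named here (2.88, SE 0.45, adjusted p = 0.0055), with 75.7, 78.1 and 93.4 normalized counts in DMSO, 3.8, 2.6 and 1.1 with vemurafenib, 275.5, 254 and 198 with tretinoin and 44.7, 65.5 and 60.5 with both.

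**Figure D3:**
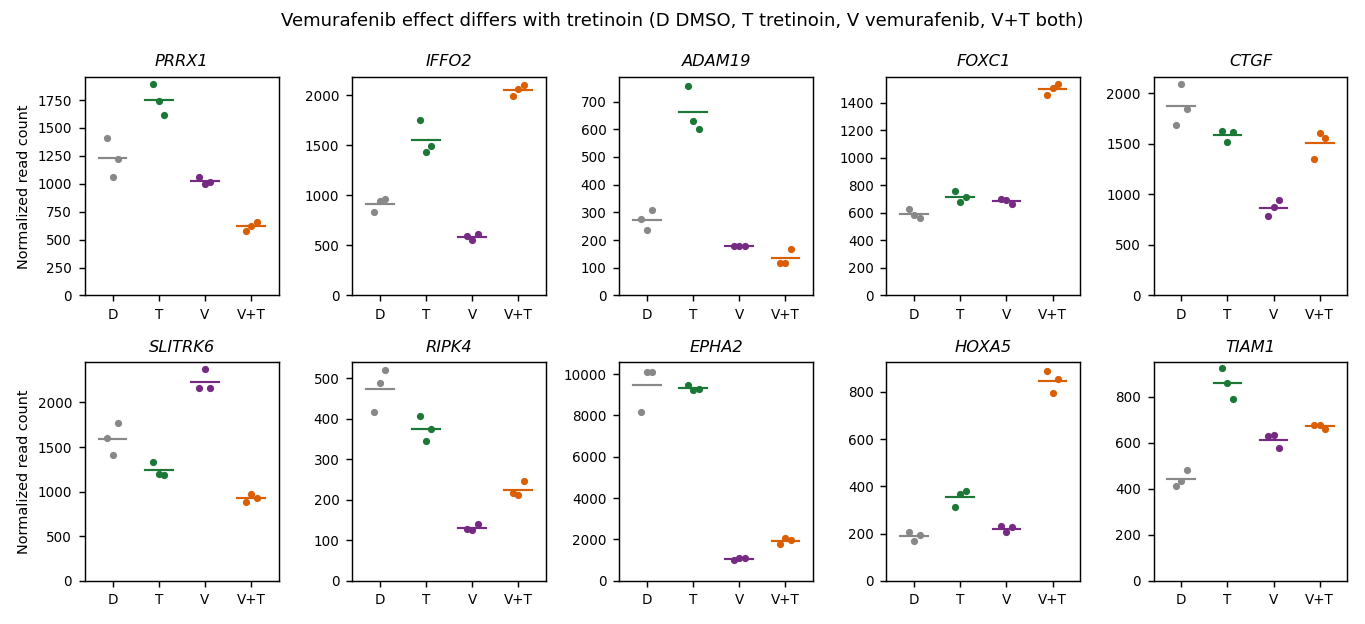
Normalized read counts of the 10 genes with the smallest interaction p in DMSO (D), tretinoin (T), vemurafenib (V) and vemurafenib + tretinoin (V+T). Points are samples and bars are means of 3. HOXA5 and FOXC1 are highest with both drugs, and EPHA2 is low wherever vemurafenib was given.

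Several negative interactions were of another kind. CD34, a marker of blood stem cells and vessel lining, held 4.7, 0.0 and 5.7 normalized counts in DMSO, 19.9, 63.0 and 55.4 in tretinoin, 61.0, 90.4 and 96.6 with vemurafenib and 109, 88.1 and 97.4 in the combination. It was near 0 in DMSO and present in every other library, with tretinoin replicate 1 below the other two tretinoin samples. ITGA2B, the platelet integrin, showed the same order, with 5.8, 4.9 and 5.7 in DMSO, 18.5, 41.0 and 41.6 in tretinoin, 52.6, 73.0 and 79.3 with vemurafenib and 80.5, 71.4 and 72.0 in the combination. STAB1, ITM2A, CELF2, FAM30A, CCND2 and the histone genes HIST1H1B and HIST1H3B were likewise lowest in DMSO, though CCND2 had a mean of 14.5 there and HIST1H1B was highest in tretinoin replicate 2 and not called between combination and tretinoin (log2 0.15, adjusted p = 0.73). Their interactions ran from -1.85 for CCND2 to -3.74 for HIST1H1B. All 9 negative interaction genes that lay below every other sample in DMSO and rose by over 2 on the log2 scale with each drug alone had their lowest tretinoin value in replicate 1. Among all genes tested, 58 had that pattern against DMSO, 52 of them outside chromosome Y and the rest on it. In 43 of the 58, replicate 1 was the lowest tretinoin sample. Of the 58, 24 genes were called higher with the combination than with tretinoin, a larger share than the 24.1% of all genes tested. The share of all genes with their lowest tretinoin value in replicate 1 is not given here, so the counts for replicate 1 have no background to be read against. Without that sample the log2 fold change of CD34 between combination and tretinoin was 0.72 in place of 1.04 (adjusted p = 0.011 in place of 0.0062), and that of CCND2 0.63 in place of 0.87 (adjusted p = 0.013 in place of 0.0049).

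Several of these low-count genes are known from blood cells, among them RHAG of red cells, the blood transcription factor GFI1B and the leukocyte signalling gene VAV1. Normalized counts were summed over 9 genes of blood cells or vessels (CD34, ITGA2B, STAB1, CD93, RHAG, GFI1B, MMRN1, VAV1 and IGHM). The sums were 23.3, 33.0 and 32.4 in DMSO, 107.3, 332.9 and 261.3 in tretinoin, 322.9, 393.8 and 509.2 with vemurafenib and 581.7, 405.5 and 457.3 in the combination. The sum was thus higher in every combination sample than in every tretinoin sample, and lowest in DMSO. Taken singly, only CD34, ITGA2B and RHAG kept the tretinoin and combination samples apart. STAB1, CD93, GFI1B, MMRN1, VAV1 and IGHM overlapped, as in STAB1 with 26.5, 95.6 and 61.4 in tretinoin and 150.1, 94.9 and 126.8 in the combination. Vessel genes outside the sum did not all rise: CDH5 and PECAM1 were lower with the combination than with tretinoin, and VWF was higher. PTPRC, the leukocyte marker CD45, was at 15.1, 31.7 and 13.3 in DMSO, 67.6, 59.9 and 36.6 in tretinoin, 41.3, 53.9 and 56.5 with vemurafenib and 82.5, 63.8 and 56.4 in the combination. It was lowest in DMSO too, but the tretinoin and combination samples overlapped and tretinoin replicate 1 was the highest of its group. CD3E and CD68 had at most 9 and 2 counts in any sample. The 9 summed genes were picked after their values were seen. The mitochondrial share of counts was also lower in DMSO than in the other 9 libraries, and a source other than the A375 cells was not tested. CCND2, the cyclin that rose among the G1 genes, follows the same order of libraries. The interaction of CCND2 was called under 8 of 19 alternatives and that of CD34 under 18, while those of CELF2, HIST1H3B and FAM30A were called under 8, 7 and 12.

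**Figure D4:**
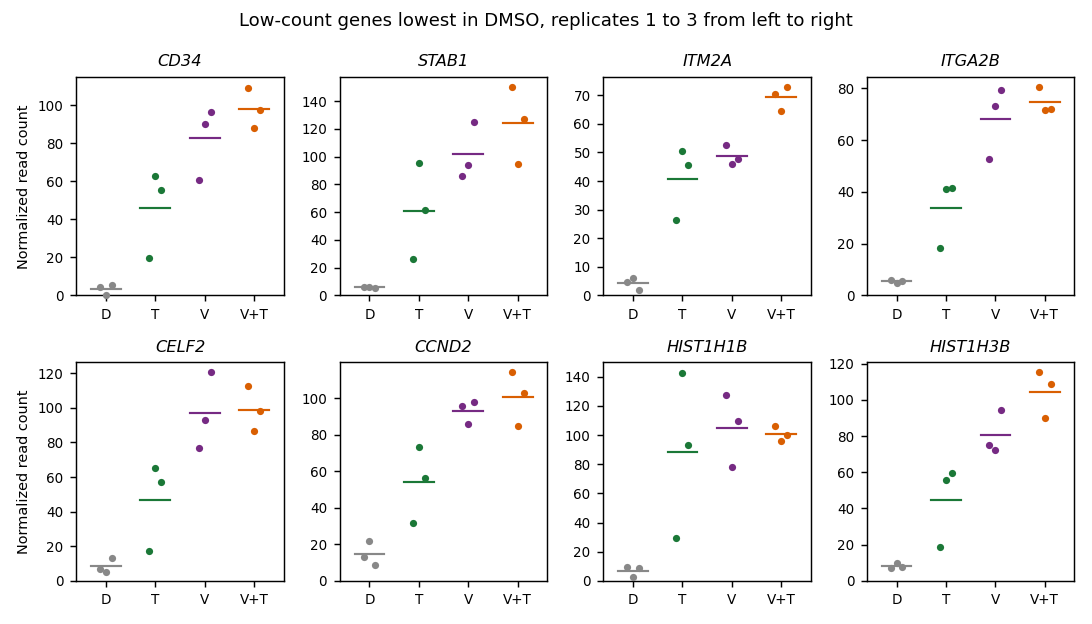
Normalized read counts of 8 genes with negative interactions in DMSO (D), tretinoin (T), vemurafenib (V) and vemurafenib + tretinoin (V+T), with replicates 1 to 3 from left to right and bars at the means of 3. In each gene the DMSO samples are lowest and tretinoin replicate 1 is below the other two tretinoin samples.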

How the data were processed

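Poly(A) RNA of 12 A375 samples was sequenced from directional libraries as paired reads. The authors aligned them with STAR 2.5.3a to GRCh38.p10, per the labels, and deposited raw counts of fragments per GENCODE 27 gene, made with summarizeOverlaps in Union mode with strand ignored, so fragments that could be assigned to more than 1 gene are missing. Total counts of the compared samples ran from 13510235 to 21534377, and counts of 10 or fewer carry large counting error.

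Groups came from the sample titles. Gene positions were taken from GENCODE 29 (58084 of 58347 identifiers matched). Genes kept by filterByExpr were fitted in edgeR 4.0.16 (R 4.3.3) with TMM scaling and the quasi-likelihood test on all 12 samples, with group as the only term. P-values were Benjamini-Hochberg adjusted over all 16740 genes, and 0.05 was the threshold. SE values are the log2 fold change divided by the root of its F statistic. The scripts were tested on simulated data. Alternatives were DESeq2 1.42.0 with and without a beta prior, other scalings and filters, only the compared groups, a replicate block, a threshold of 0.01 and each library left out.

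Genes named by rule were the 12 largest rises and 12 largest falls whose groups did not overlap, with a mean normalized count of at least 100 and a proper symbol, the first 3 genes of each list with its largest called rise and fall, the 10 smallest interaction p-values under the same conditions on count and symbol, and 3 long noncoding genes each way. Results of a few genes that met the rule are not reported here. Other genes (among them SPRY1, ERRFI1, SPRED2, SPRED3, DUSP2, JUN, MYC, PLAUR, IL11, CSF2, HRK, BBC3, CCND2 and the blood genes) were chosen after their values were seen. The comparison and gene lists were chosen with earlier results of these data known. Same-numbered samples were checked for pairing, and their deviations from the group means had correlations from -0.14 to 0.09 over 18 pairs. Promoter sequences and motif searches used RefSeq promoters, and a motif was searched on both strands.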

Additional observations from a re-analysis of the deposited data

Results flagged for a closer look

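For each gene below the effect of vemurafenib in the presence of tretinoin differed from its effect in the absence of tretinoin, by edgeR's interaction test at an adjusted p under 0.05. Values are the difference of the log2 fold changes, with tretinoin minus without.

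Among positive differences, CDH5 had 2.88, RIPK4 1.12, PDE5A 1.11, IFFO2 and CTGF 1.04 each, HOXA5 1.03 and EGR3 1.01. Smaller ones were EPHA2 at 0.86, FOXC1 at 0.85, JUN at 0.74, HOXB2 at 0.72, UPP1 at 0.70, ETS2 at 0.68 and JUNB at 0.62. JUNB was called under 12 of 19 alternatives, JUN under 11, ETS2 under 8 and EGR3 under 6. HOXB2 fell with vemurafenib in both settings, and less with tretinoin.

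Among negative differences, PRRX1 had -1.23, ADAM19 -1.68, SLITRK6 -0.89 and TIAM1 -0.82. The glycolysis regulator PFKFB4 had -1.07 and the G1 kinase gene CDK6 -0.53. Of 19 alternatives, CDK6 was called under 8 and PDE5A under 15. The low-count genes that were lowest in DMSO gave HIST1H1B -3.74, CD34 -3.40, STAB1 -3.10, ITM2A -2.81, FAM30A -2.68, ITGA2B -2.50, CELF2 -2.41, HIST1H3B -2.11 and CCND2 -1.85. FAM30A was called under 12 of 19 alternatives, CELF2 and CCND2 under 8 each and HIST1H3B under 7. In these 9 genes tretinoin replicate 1 was the lowest of the tretinoin samples, and without it the differences ranged from -4.13 for HIST1H1B to -2.11 for CCND2. HIST1H1B and HIST1H3B are replication histone genes, whose RNA mostly lacks a poly(A) tail, so a poly(A) library samples it poorly.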

How the results depend on the processing

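The counts of genes higher or lower with the combination, and of genes changed the same way with and without tretinoin, stayed within 1.5 times under every alternative run. Interaction counts moved most. Positive and negative calls were 126 and 150 in DESeq2 without shrinkage, 134 and 146 with a beta prior, 36 and 132 with total counts only, 389 and 221 with no low-count filter, and 27 and 17 at the 0.01 threshold. Leaving out 1 library gave 31 to 115 positive and 25 to 168 negative calls, with the upper ends without tretinoin replicate 1. The causes were not tested. With the replicate block they were 39 and 36, but same-numbered samples did not deviate together, and 2 of 12 samples correlated best with their own number.

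Among lists, the risers of mitosis numbered 4 at the 0.01 threshold, and those of the melanocyte list 5 with total counts only. Class I risers were 5 with total counts only, 4 with a mean count of at least 50, 1 with only the groups compared, 0 at the 0.01 threshold and 0 to 3 with 1 library left out. With a mean count of at least 50, which leaves fewer genes, 6 cytokine genes fell and 2 markers of other cell types rose.

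Of 2347 log2 fold changes of named genes under alternatives, 2273 kept direction and call. Those that changed sign were near 0: CTGF 0.01, CCNB1 0.04, PLK1 0.03 and TAP1 0.08 with total counts only, and TAP1 0.00 with no low-count filter and 0.04 with a mean count of at least 50. With 1 library left out, BRAF ranged from -0.06 to 0.09, B2M from -0.03 to 0.03, TAP1 from -0.03 to 0.03 and HIST1H1B from -0.23 to 0.65. For the 29 genes with a called interaction, 100 of 549 values under alternatives lost the call, in 14 genes, and none changed sign.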
